A study of Mus musculus with 8 samples.

Results

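The olfactory receptor gene clusters of mouse chromosomes 2 and 9 were examined for H3K27me3 peaks in 5 chromatin immunoprecipitation libraries. The clusters were taken as 2 fixed windows in the coordinates of the deposited peak lists (mm9), chromosome 2 from 86 to 90 Mb and chromosome 9 from 37.5 to 40 Mb, and any peak that overlapped a window by 1 bp or more was a member. Of the 208616 peaks in the 5 lists, 29 were members: 0 in the chromosome 2 window and 29 in the chromosome 9 window. AstroEGFR libraries 1 and 3 (n = 2) came from astrocytes of the cerebral cortex of C57BL/6 mice at postnatal day 5, which lacked p16/p19 (Ink4a/Arf) and expressed human EGFRvIII from a retroviral vector. PT libraries 1, 3 and 4 (n = 3) came from glioma propagating cells of tumours that grew from such C57BL/6 astrocytes, and hence carry both lesions, after transplantation into CD1 Nude mice. Both kinds of cells were kept below passage 10 in culture, but in different media. By the methods, the astrocytes grew in medium with fetal bovine serum. The tumour cells grew on laminin in another medium with EGF and a fibroblast growth factor. Stage and culture medium thus changed together and cannot be told apart here. Tumour cultures were started from dissociated tumour pieces, and the methods read here name no step that removes cells of the nude host. The EGFRvIII transgene and the p16/p19 loss were shared by all libraries, so no untransformed sample enters the comparison.

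Olfactory receptors are G-protein-coupled receptors that detect odorants, and they form the largest gene family of the mouse, lying in long clusters of related copies. Each olfactory sensory neuron transcribes a single receptor allele, and in other tissues the clusters are generally silent. In the olfactory epithelium the silent clusters are known to carry heterochromatin marks (H3K9me3 and H4K20me3). H3K27me3 is laid down by Polycomb repressive complex 2 (PRC2), which typically settles at CpG-rich promoters of developmental regulators. The question put to the lists was how much of this mark the receptor clusters carried in glioma cells and their astrocytes of origin, beside the remainder of the same chromosomes.

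The gene content of these clusters was read from the RefSeq annotation of GRCm38.p6, a later build than that of the lists, so that it was used for names and gene order only. Chromosome 2 held 287 coding olfactory receptor genes in 3 runs of neighbouring genes. The longest run, from Olfr987 to Olfr1274, held 222 of them with 71 receptor pseudogenes and was interrupted by 3 other coding genes (Fads2b, Pramel7 and Pramel6). Its nearest coding neighbours were Lrrc55 and Aplnr on one side and Ptprj, which encodes a receptor tyrosine phosphatase, and Gm46752 on the other. Chromosome 9 held 130 coding receptor genes in 2 runs, the longer of which ran from Olfr160 to Olfr986 with 95 coding genes, 31 receptor pseudogenes and 3 other coding genes (Vwa5a, AW551984 and Tmem225). Panx3, a pannexin channel gene, and Zfp202, a zinc finger gene, were its coding neighbours. Which of these genes lie inside the windows was not determined, since no annotation of mm9 was used here.

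Promoters are shown because CpG content is the sequence feature tied to PRC2 above, and to set receptor genes beside their coding neighbours. Each sequence is 300 bases from RefSeq (GRCm38.p6, positions not comparable with those of the peak lists), from 250 bases before the gene start, 5′ to 3′ on the strand of the gene, with every CG dinucleotide in capitals. For each chromosome the lines give a receptor gene with the median number of CG, the receptor gene with the most, and a coding neighbour just beyond the run. Of the neighbours on both sides, the one with more CG is shown, at its entry with the most CG.
Olfr988 (chr2:85353875-85354174, minus strand, 1 CG): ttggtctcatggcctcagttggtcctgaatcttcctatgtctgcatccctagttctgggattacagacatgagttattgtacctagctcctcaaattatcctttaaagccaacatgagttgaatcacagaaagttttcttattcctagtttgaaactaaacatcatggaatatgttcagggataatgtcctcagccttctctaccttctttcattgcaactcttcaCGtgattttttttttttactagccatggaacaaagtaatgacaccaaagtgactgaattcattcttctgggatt
Olfr1212 (chr2:88958218-88958517, plus strand, 7 CG): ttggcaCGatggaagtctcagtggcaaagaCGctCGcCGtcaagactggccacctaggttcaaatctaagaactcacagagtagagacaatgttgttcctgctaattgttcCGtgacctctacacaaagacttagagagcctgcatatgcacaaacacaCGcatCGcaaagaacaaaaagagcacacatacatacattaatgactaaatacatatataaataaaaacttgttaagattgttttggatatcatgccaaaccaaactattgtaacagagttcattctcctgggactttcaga
Ptprj (chr2:90580546-90580845, minus strand, 42 CG): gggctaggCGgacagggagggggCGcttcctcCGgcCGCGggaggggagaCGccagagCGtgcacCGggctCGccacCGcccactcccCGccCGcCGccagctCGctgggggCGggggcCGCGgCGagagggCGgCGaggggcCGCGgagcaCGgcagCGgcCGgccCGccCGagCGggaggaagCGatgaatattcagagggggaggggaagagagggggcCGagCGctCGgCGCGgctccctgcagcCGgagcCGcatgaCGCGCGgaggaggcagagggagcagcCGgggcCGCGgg
Olfr881 (chr9:37992242-37992541, plus strand, 1 CG): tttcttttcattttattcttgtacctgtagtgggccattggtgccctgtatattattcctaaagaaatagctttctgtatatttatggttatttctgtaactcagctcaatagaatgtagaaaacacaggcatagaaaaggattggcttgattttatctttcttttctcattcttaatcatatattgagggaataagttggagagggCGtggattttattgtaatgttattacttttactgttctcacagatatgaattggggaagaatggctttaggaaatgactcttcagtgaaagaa
Olfr976 (chr9:39960995-39961294, minus strand, 8 CG): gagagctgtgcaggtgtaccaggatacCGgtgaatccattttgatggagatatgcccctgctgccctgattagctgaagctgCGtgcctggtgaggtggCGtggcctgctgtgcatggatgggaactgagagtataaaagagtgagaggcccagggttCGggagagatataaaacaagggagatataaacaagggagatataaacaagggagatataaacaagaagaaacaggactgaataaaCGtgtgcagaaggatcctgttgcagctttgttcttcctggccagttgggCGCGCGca
Zfp202 (chr9:40192066-40192365, plus strand, 17 CG): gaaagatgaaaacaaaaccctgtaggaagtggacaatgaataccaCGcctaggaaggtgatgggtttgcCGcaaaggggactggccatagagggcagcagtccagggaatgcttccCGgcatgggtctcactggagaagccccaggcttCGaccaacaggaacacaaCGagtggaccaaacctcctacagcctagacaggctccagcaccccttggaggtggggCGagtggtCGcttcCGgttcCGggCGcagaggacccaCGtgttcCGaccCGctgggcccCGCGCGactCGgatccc

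Promoters are here the stretches around annotated gene starts. In Olfr988 and Olfr1212 the bases from that start on begin with atg, the usual start codon. The annotated start of such genes may thus not be the start of transcription. For how many receptor genes this holds was not determined. Receptor promoters defined in this way held few CG. Of the 222 and 95 coding receptor genes of both runs, 186 and 79 had an entry, with 187 and 80 promoters. The median number of CG per 300 bases was 1 in the chromosome 2 run (0 to 7) and 1 in the chromosome 9 run (0 to 8). The median over other coding genes was 16 on chromosome 2 (1623 promoters) and 16 on chromosome 9 (1124 promoters), and that over all 32851 promoters of the table was 7. A count of 0 was found in 35.8% of the receptor promoters of the chromosome 2 run and in 30% of those of the chromosome 9 run, against 5.43% of all promoters. None of these 187 and 80 receptor promoters reached 10 CG, against 64.0% and 65.7% of those of the other coding genes of the same chromosomes. The G and C share had a median of 32.0% and 35.5% in the receptor runs and of 58.0% and 58.3% in the other coding genes. The sequences above run from 1 CG in Olfr988 and Olfr881 and 8 in Olfr976 to 42 in Ptprj. They include no promoter with 0 CG and none with the highest counts of the other coding genes (65 on chromosome 2 and 63 on chromosome 9). Neighbours differed among themselves, with 17 CG in Zfp202 and, on the other side of each run, 4 in Lrrc55 and 13 in Tbrg1, the nearest gene there with an entry. The 4 of Lrrc55, whose sequence is not shown, were fewer than the 7 of the receptor gene Olfr1212. These counts describe the annotated genes and were not related to peaks one by one. Whether CG content has a part in the missing peaks was not tested.

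**Figure D1:**
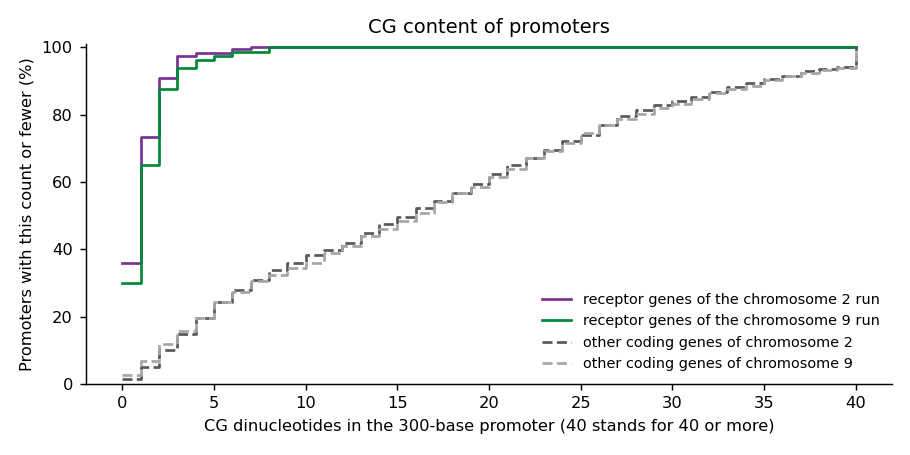
Cumulative share of promoters (percent, vertical axis) by number of CG dinucleotides in 300 bases (horizontal axis, with 40 or more at its end), for the receptor runs of chromosomes 2 and 9 (solid) and the other coding genes of the same chromosomes (dashed). Both receptor curves are complete at 8 CG, whereas the median of the other coding genes is 16.

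The lists differed in length from 3722 peaks (AstroEGFR 3) to 66279 (PT 4), and the number of reads behind them is unknown. Where a list has no peak, the mark may still be present below the calling threshold. AstroEGFR 1, PT 1 and PT 4 held 179 to 236 peaks on unplaced sequences and AstroEGFR 3 and PT 3 held 0. This difference between lists cuts across the stages, and the labels do not state its origin. Peaks were numbered without a gap in every list, and whether peaks had been filtered before numbering was not tested.

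The chromosome 2 window held no peak in any library. AstroEGFR 1 had 0 of its 2709 chromosome 2 peaks there, AstroEGFR 3 0 of 366, PT 1 0 of 4045, PT 3 0 of 3304 and PT 4 0 of 4678. The window made up 2.24% of the chromosome, measured from the first to the last peak of any list. Placed in proportion to length, 60.6, 8.19, 90.5, 74.0 and 105 peaks would have fallen in it in AstroEGFR 1, AstroEGFR 3, PT 1, PT 3 and PT 4. The median of the other stretches of 4 Mb on this chromosome was lower, at 32.0, 3, 46.0, 32.5 and 51.5 in the same order. A count of 0 allows a share of up to 0.820% in AstroEGFR 3, the shortest list, and of up to 0.0641% in PT 4, the longest. These limits (3 counts of the total) cover counting error only, and neighbouring peaks are not independent. All 5 limits lay below the share of the window in the chromosome.

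On the rest of chromosome 2 the density was 15.5 peaks per Mb in AstroEGFR 1, 2.10 in AstroEGFR 3 and 23.2, 18.9 and 26.8 in PT 1, PT 3 and PT 4. Peaks covered 2.14%, 0.189%, 3.01%, 1.88% and 3.40% of that remainder in the same order, against 0 in the window. Cut into 100 kb bins, the window had 0 of 40 bins with a peak in each library. Outside it the share of the 1745 bins with a peak was 28.5% in AstroEGFR 1, 10.6% in AstroEGFR 3 and 34.0%, 34.6% and 37.6% in PT 1, PT 3 and PT 4. The window was thus lower than the remainder of the chromosome in 5 of 5 libraries by each of these measures.

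**Figure D2:**
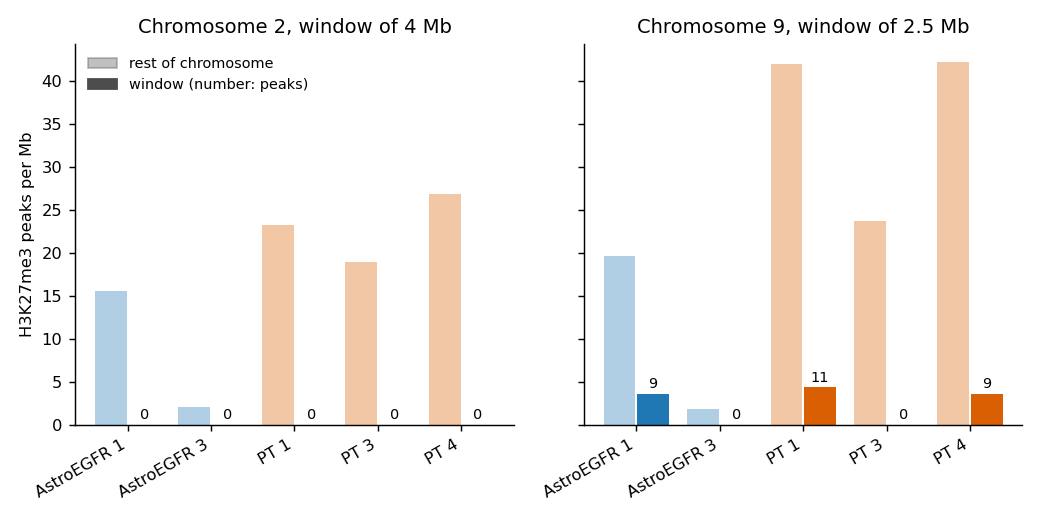
H3K27me3 peaks per Mb (vertical axis) in the window (dark bars, with the number of peaks) and on the rest of the same chromosome (pale bars) for each library, AstroEGFR in blue and PT in orange. The chromosome 2 window has 0 peaks in every library, and the chromosome 9 window has 9, 0, 11, 0 and 9.

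The empty stretch extended beyond the chromosome 2 window on both sides. It ran from 84832141 to 90726265 in AstroEGFR 1 (5.89 Mb), from 84715467 to 90926140 in AstroEGFR 3 (6.21 Mb), from 84849810 to 90443201 in PT 1 (5.59 Mb), from 85093284 to 90459841 in PT 3 (5.37 Mb) and from 84874855 to 90443164 in PT 4 (5.57 Mb). It was the longest on chromosome 2 in AstroEGFR 1 and PT 1 and the second longest in PT 3 and PT 4, where the longest elsewhere measured 5.41 and 5.58 Mb. In AstroEGFR 3, with few peaks, it ranked sixth, the longest being 23.1 Mb. The nearest peak below the window lay 907 kb away in PT 3 and 1125 to 1285 kb away in the other libraries, and the nearest above lay 443 to 926 kb away. The empty stretch was thus wider than the window on both sides in 5 of 5 libraries. Whether it also extends past the receptor run was not determined, since the run was not placed in the coordinates of the lists.

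With the 5 lists pooled, 5.35 Mb of chromosome 2 (85093284 to 90443164) held no peak, the longest such stretch among 6947 on the chromosome. Over the autosomes it ranked 7 among 98926 stretches, whose median length was 1504 bp. Stretches of this length without a peak were therefore few but not particular to the receptor cluster. The corresponding stretch of chromosome 9 (37744222 to 39918882, 2.17 Mb) was the second longest of 7064 on that chromosome and ranked 96 on the autosomes.

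**Figure D3:**
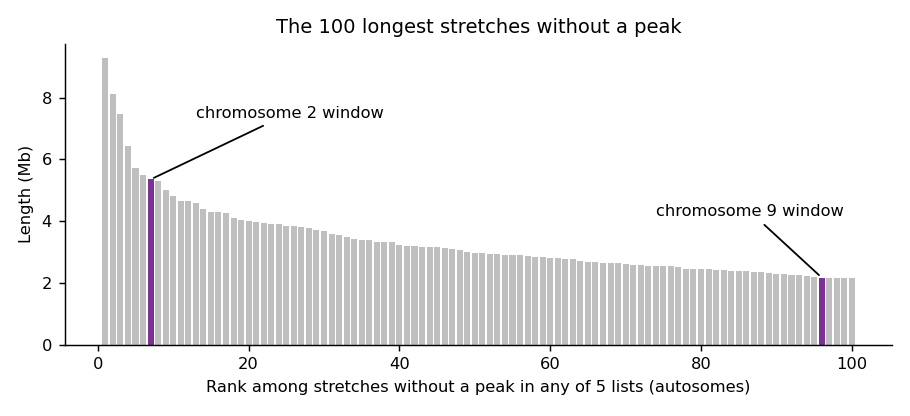
Length (Mb, vertical axis) of the 100 longest autosomal stretches without a peak in any of the 5 lists, ordered by rank (horizontal axis). The stretches that hold the centres of the receptor windows are in purple: 5.35 Mb at rank 7 for chromosome 2 and 2.17 Mb at rank 96 for chromosome 9.

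The chromosome 9 window held few peaks, and those lay at its edges. AstroEGFR 1 had 9 peaks there (0.385% of its chromosome 9 peaks, Wilson 95% CI 0.203 to 0.731), PT 1 had 11 (0.221%, CI 0.123 to 0.395) and PT 4 had 9 (0.180%, CI 0.0946 to 0.341), whereas AstroEGFR 3 had 0 of 214 and PT 3 had 0 of 2811. The window made up 2.07% of the chromosome, more than the upper bound of each interval and than the limits that a count of 0 allows (1.4% in AstroEGFR 3 and 0.107% in PT 3). The 3 libraries with members were those with peaks on unplaced sequences, and the part of this difference between lists in the result was not tested. For AstroEGFR 3, placement in proportion to length would give only 4.42 peaks in the window, against 58.1 for PT 3.

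The density in the chromosome 9 window was 3.60 peaks per Mb in both AstroEGFR 1 and PT 4 and 4.40 in PT 1, and on the rest of the chromosome it was 19.6 in AstroEGFR 1, 42.2 in PT 4 and 41.9 in PT 1. AstroEGFR 3 and PT 3, with 0 in the window, had 1.81 and 23.7 peaks per Mb outside. The covered share in the window was 0.488% in AstroEGFR 1 (12.2 kb), 0.323% in PT 1 (8.08 kb) and 0.407% in PT 4 (10.2 kb), against 2.87%, 5.83% and 5.34% outside. Of the 25 bins of 100 kb in the window, 2 held a peak in AstroEGFR 1, 4 in PT 1 and 2 in PT 4, and 0 in AstroEGFR 3 and PT 3. The background share of bins with a peak on the rest of chromosome 9 was 33.7% in AstroEGFR 1, 10.6% in AstroEGFR 3 and 48.5%, 44.3% and 51.2% in PT 1, PT 3 and PT 4. Each library was thus lower inside than outside by the 3 measures.

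The members formed 15 merged regions, 6 near the lower edge and 9 near the upper edge of the chromosome 9 window. At the upper edge lay 8 peaks of AstroEGFR 1, 7 of PT 1 and 8 of PT 4, none farther than 80.6 kb from the edge. At the lower edge AstroEGFR 1 had 1 peak 5.24 kb inside the window, PT 4 had 1 peak 153 kb inside, and PT 1 had 4 peaks, of which the innermost lay 244 kb inside. Between them, the middle of the window held no peak in any library, and with 500 kb taken off each side the window held 0 peaks in all 5 lists.

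The 4 regions marked by 3 libraries all lay at the upper edge and were shared by AstroEGFR 1, PT 1 and PT 4. The strongest of them in AstroEGFR 1 and PT 4, chr9:39987734-39991507 (3774 bp), had a best score of 373 and 623 there, the latter at percentile 89.2 of its list. Its best score in PT 1 was 149, below the 219 of chr9:39965622-39968395 in that list. The score is the value that the peak caller MACS gave each peak, and it was compared within lists only. In chr9:39987734-39991507 AstroEGFR 1 peaks covered 3627 bp, those of PT 4 3426 bp and those of PT 1 1358 bp. The region chr9:39965622-39968395 (2774 bp) was covered over 1932, 907 and 1898 bp in the same libraries, chr9:39969451-39971095 over 1340, 860 and 1132 bp, and chr9:39985910-39987200 over 1161, 598 and 637 bp. In each of the 4, PT 1 had the smallest covered length.

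A further 2 regions were marked by a pair of libraries: chr9:39983481-39985636 by AstroEGFR 1 (1855 bp) and PT 4 (1805 bp), and chr9:39971882-39972691 by AstroEGFR 1 (810 bp) and PT 1 (596 bp). The remaining 9 regions were marked by a single library, 2 by AstroEGFR 1, 5 by PT 1 and 2 by PT 4. Regions marked by a single library made up 60.0% of the 15 in the window and 55.1% of the 7050 on the rest of chromosome 9. By score percentile within their list, the highest 4 of these were chr9:37565759-37566938 (1180 bp), chr9:39956866-39957611 (746 bp) and chr9:37649479-37650094 (616 bp) in PT 1, and chr9:37653210-37653930 (721 bp) in PT 4. The 2 single regions of AstroEGFR 1 measured 718 and 751 bp and stood at percentiles 9.38 and 3.02 of its list. The innermost peak at the lower edge, in PT 1, measured 584 bp and stood at percentile 9.94 of its list.

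Member peaks had a median width of 1161 bp (AstroEGFR 1), 646 bp (PT 1) and 869 bp (PT 4), against 1037, 817 and 799 bp on the rest of chromosome 9. The widest reached 2483, 1180 and 2793 bp in the same order, whereas the rest of the chromosome reached 38872, 38743 and 38736 bp. Their median score percentile within the list was 56.7 in AstroEGFR 1, 32.1 in PT 1 and 45.6 in PT 4, and it was 49.9, 50.8 and 50.5 on the rest of the chromosome. Only PT 1 thus had members both narrower and lower in score than its other chromosome 9 peaks at the median, and with 9 to 11 peaks a library this was not tested. The Jaccard index (base pairs in both lists divided by those in either) within the window was 0.493 for AstroEGFR 1 and PT 4, 0.226 for AstroEGFR 1 and PT 1 and 0.211 for PT 1 and PT 4. On the rest of chromosome 9 these pairs had 0.318, 0.317 and 0.509, so that PT 1 and PT 4 were the closest pair outside the window and the least close of these pairs inside it.

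**Figure D4:**
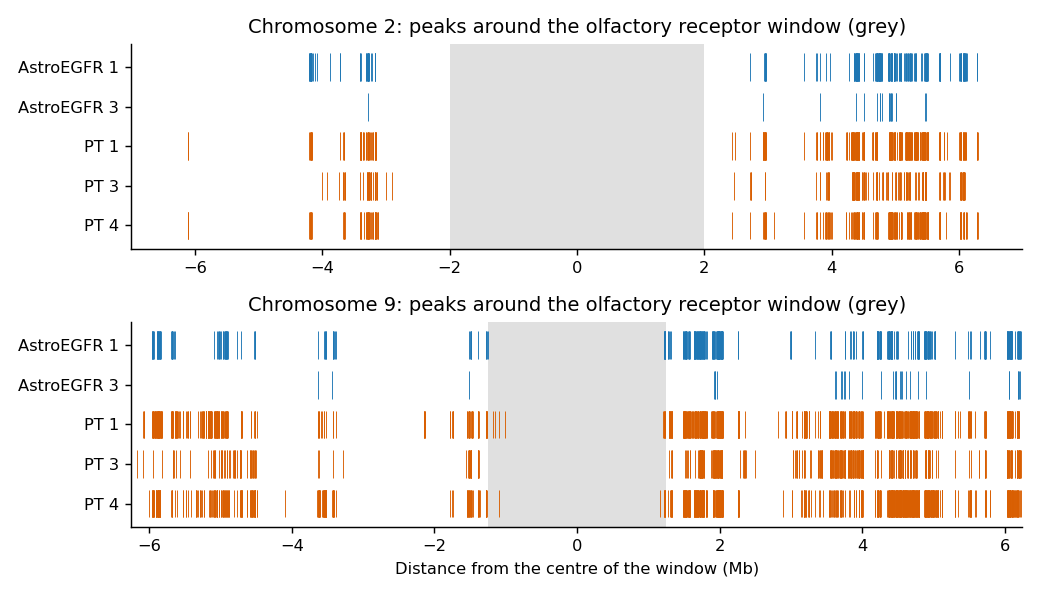
Position of each peak (vertical lines) by distance from the centre of the window (Mb, horizontal axis) for the 5 libraries, with the windows in grey. The chromosome 2 window is empty in every row, and no peak lies within 443 kb of its edges. On chromosome 9 the peaks of AstroEGFR 1, PT 1 and PT 4 reach only the edges of the window.

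The surroundings of the windows differed between the chromosomes. In the first 500 kb above the chromosome 2 window there were 0 peaks in AstroEGFR 1 and AstroEGFR 3, and 2, 1 and 1 in PT 1, PT 3 and PT 4, and in the first 500 kb below it 0 in every library. In the first 500 kb above the chromosome 9 window there were 51 peaks in AstroEGFR 1, 0 in AstroEGFR 3 and 80, 29 and 81 in PT 1, PT 3 and PT 4. Below the chromosome 9 window the first 500 kb held 9, 1, 31, 18 and 31 peaks in the same order, and peaks became sparse again between 1 and 2 Mb from the edge, with 0 in every library. In 4 of 5 libraries the first 500 kb above the chromosome 9 window thus held more peaks than the whole window.

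Each window was also set beside the other stretches of equal length on its chromosome. Among 42 other stretches of 4 Mb on chromosome 2, the median number of peaks was 32.0, 3, 46.0, 32.5 and 51.5 for AstroEGFR 1, AstroEGFR 3, PT 1, PT 3 and PT 4. None of them was empty in PT 1, PT 3 or PT 4, 1 was empty in AstroEGFR 1 and 11 in AstroEGFR 3. Summed over the 5 lists, every other stretch held at least 9 peaks. Among 46 other stretches of 2.5 Mb on chromosome 9 the medians were 29.5, 2, 75.5, 41.5 and 77.5, and those with fewer peaks than the receptor window numbered 8 in AstroEGFR 1, 0 in AstroEGFR 3 and 7, 0 and 4 in PT 1, PT 3 and PT 4. In AstroEGFR 3 and PT 3, 13 and 3 other stretches were also empty, and summed over the lists 6 had fewer peaks than the 29 of the window. The fullest stretch of chromosome 9 in AstroEGFR 1, PT 1, PT 3 and PT 4, from 60000000 to 62500000, held 199, 473, 289 and 510 peaks. On chromosome 2 the fullest in AstroEGFR 1, AstroEGFR 3, PT 1 and PT 4, from 26000000 to 30000000, held 304, 40, 462 and 449.

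**Figure D5:**
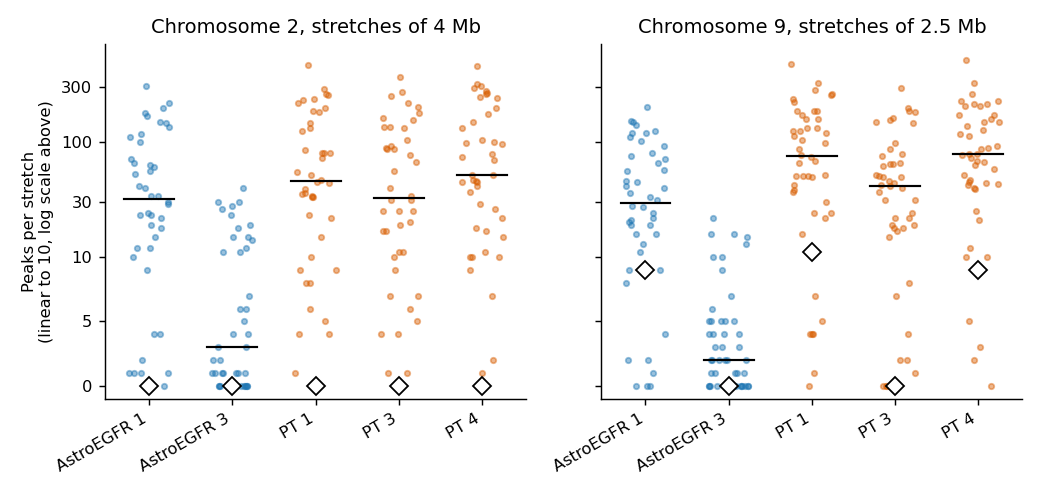
Peaks per stretch of the length of the window (vertical axis, linear to 10 and logarithmic above) on chromosomes 2 and 9, with a dot for each other stretch, a bar at their median and a diamond for the receptor window. The diamonds lie at 0 in all libraries on chromosome 2, and at 9, 0, 11, 0 and 9 on chromosome 9, where some dots lie lower.

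To compare window and remainder with the library as unit, the difference inside minus rest was tested by an exact sign-flip permutation test (two-sided). On chromosome 2 it was -17.3 ± 9.50 peaks per Mb, -2.12 ± 1.25 percentage points of covered length and -29.1 ± 10.8 percentage points of bins with a peak (SD, n = 5). On chromosome 9 it was -23.5 ± 15.4 peaks per Mb, -3.04 ± 2.18 points of covered length and -31.3 ± 13.9 points of bins (SD, n = 5). Each of the 6 differences had the same sign in 5 of 5 libraries and an exact p = 0.0625, which was also 0.0625 after Benjamini-Hochberg adjustment over the 6. This is the smallest p that 5 libraries allow, so that none could pass 0.05. Since no list had a peak inside, the chromosome 2 differences restate that count and their sign was fixed. In each library the median of the other stretches of equal length also lay below placement in proportion to length, on both chromosomes. On chromosome 2 it was 32.0 against 60.6 peaks in AstroEGFR 1 and 51.5 against 105 in PT 4. The test thus does not set the receptor windows apart from such stretches. The size of the chromosome 9 difference depended on the edges of the window. With 500 kb added on each side it was -4.92 peaks per Mb (exact p = 0.125), and AstroEGFR 1 had 19.7 peaks per Mb inside and 19.3 outside. In the same wider window the differences in covered length (-0.615 points) and in bins (-15.2 points) kept their sign in 5 of 5 libraries (exact p = 0.0625 for each). Against flanks of 5 Mb only, the difference was -44.0 peaks per Mb on chromosome 9 and -20.2 on chromosome 2. Against all other placed chromosomes it was smaller, at -13.5 peaks per Mb for the chromosome 9 window and -16.2 for the chromosome 2 window.

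Between the stages of gliomagenesis no difference in the receptor windows could be shown. On chromosome 2 the ratio of density inside to rest was 0 in both AstroEGFR and all 3 PT libraries, so there was no difference to test. On chromosome 9 the ratio for peaks per Mb was 0.183 in AstroEGFR 1, 0 in AstroEGFR 3 and 0.105, 0 and 0.0854 in PT 1, PT 3 and PT 4. The means were 0.0917 ± 0.130 (SD, n = 2) in AstroEGFR and 0.0635 ± 0.0558 (SD, n = 3) in PT, a difference of -0.0282 with p = 1 in the exact permutation test (two-sided, 10 splits). For covered share the ratio was 0.170, 0, 0.0555, 0 and 0.0762, with a difference of -0.0410 (exact permutation p = 0.7). Both p were 1 after adjustment over 4 comparisons, and the smallest p that this design allows is 0.1. The groups overlapped in both ratios. Among the lists with peaks on unplaced sequences AstroEGFR 1 had the highest ratio, and among those without them both ratios were 0, with a single AstroEGFR library in each set. Without AstroEGFR 1 the direction turned, to 0.0635 for peaks per Mb and 0.0439 for covered share.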

How the data were processed

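H3K27me3 was profiled by ChIP sequencing in 2 AstroEGFR and 3 PT libraries. Input libraries (2 AstroEGFR, 1 PT) were not analysed here. The submitters' processing notes name Bowtie 0.12.9, MACS 1.4.1 and mm9. The authors deposited a list of peaks per library (chromosome, start, end, name and a score). What the score stands for is not stated in the lists, and it was read as a scaled logarithm of the MACS p-value. Read depth and the input used for each list are not given in the sources used here. Starts were converted to count from 1.

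Peaks were counted in a window with at least 1 bp of overlap, covered length was clipped to the window, and the rest of the chromosome ran from the first to the last peak of any list. Bins of 100 kb were used whole. Regions were merged over the 5 lists where peaks overlapped or touched. Up to 10 regions were named, those marked by most libraries first and then by score percentile, besides the widest and highest peaks of a library; the innermost peak at the lower edge of the chromosome 9 window was named after its values were seen. Olfactory receptor genes were taken by symbol (Olfr or Or); a run allows up to 3 other coding genes in a row.

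Libraries were compared by exact permutation tests. The replicates are separate libraries, and the study describes independent astrocyte batches, but the labels do not tie libraries to animals. Windows, gene lists and tests were chosen with earlier results of these data known. Alternatives concerned edges, peak filters, comparison region, span, overlap, bins, merging, pairing and omitted libraries. The functions were tested on simulated lists with known counts. Python 3.11.15, numpy 2.4.6, pandas 2.3.3, scipy 1.17.1 and matplotlib 3.10.9 were used.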

Additional observations from a re-analysis of the deposited data

How the results depend on the processing

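The window was lower than its comparison region, on average over libraries, in 80 of 80 combinations of measure, chromosome and alternative, with exact p no lower than 0.0625. On chromosome 2 no list had a peak in the window, so only wider edges could raise the value inside. The other alternatives there could not come out otherwise, and neither could the stage differences under them. Stage differences on chromosome 2 were 0 under all alternatives except 500 kb wider edges, which gave 0.0117 (peaks per Mb, exact permutation p = 0.1) and 0.00592 (covered share, p = 0.2), from 3 merged regions against 0. On chromosome 9 wider edges gave 146 merged regions against 15 and stage differences of 0.159 and 0.153. Narrower edges and equal numbers of peaks per list (3722) left 0 regions and differences of 0, and the upper 50% by score left 6 regions. Omitting each library in turn gave stage differences on chromosome 9 from -0.120 to 0.0635 (peaks per Mb) and from -0.126 to 0.0439 (covered share), lowest without AstroEGFR 3 and highest without AstroEGFR 1; without PT 3 the former was 0.00352. Merged regions then numbered 10 to 15, with 0 on chromosome 2. Libraries numbered 1 and 3 exist in both stages, and the labels do not state a pairing; the replicate block gave -0.0392 and -0.0571 on chromosome 9 and 0 on chromosome 2. Unknown read depth limits every statement on a missing peak, most of all in AstroEGFR 3. Whether reads of near-identical receptor genes could be placed uniquely was not tested.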

Other observations

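Other chromosomes held longer stretches without a peak in any of the 5 lists than the receptor cluster of chromosome 2. On the autosomes the longest were on chromosome 14 (87648305 to 96916879, 9.27 Mb), chromosome 15 (12933781 to 21044531, 8.11 Mb) and chromosome 7 (39079171 to 46529982, 7.45 Mb). Of the 10 longest over all chromosomes, 7 lay on the X chromosome, where the longest measured 13.6 Mb. Autosomal stretches longer than 2 Mb numbered 116, and those longer than 1 Mb numbered 301. The genes in these stretches were not determined.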
